A study of Mus musculus with 15 samples.

Results

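The genes described here are 6 listed markers of layer 5 subcerebral projection neurons, *Fezf2*, *Bcl11b*, *Ldb2*, *Pcp4*, *Crim1*, and *Etv1*. They were chosen by name from general knowledge of these neurons, and the rule uses no measured value, although earlier results of these data were known when the list was made. All 6 were found among the 19475 genes of the normalized read count table, and all 6 were among the 16507 genes tested, which are those with a mean normalized read count of at least 5.

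Brain RNA of 15 C57BL/6J embryos had been sequenced at E16.5, and there were 5 embryos (3 females, 2 males) for each of the genotypes WT, *Tbr1*+/K228E, and *Tbr1*K228E/K228E. The K228E change was knocked into exon 1 of *Tbr1* in all cells, and the neomycin cassette of the targeted allele had been removed with protamine-Cre in the parent line. Whether the alleles came from 1 founder is not given in the sources used here. The labels call the tissue brain and the series describes the whole brain, whereas the study describes forebrain. The comparisons ask whether genes of the layer 5 output programme differ when 1 or both copies of *Tbr1* carry the mutation.

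Subcerebral projection neurons of layer 5 send axons out of the cerebral cortex to the brainstem and spinal cord. *Fezf2* encodes a zinc finger transcription factor that specifies this identity, and *Bcl11b*, which encodes CTIP2, acts downstream of it in axon growth. *Tbr1* encodes a T-box transcription factor of layer 6 corticothalamic neurons and is known to bind and repress *Fezf2*, which keeps the corticothalamic and subcerebral fates apart.

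Sequence upstream of the RefSeq start of *Fezf2* is shown because *Fezf2* carries the main difference below. A stretch near the *Bcl11b* start is shown because it was the sole member window that held the T-box core searched for. RefSeq promoters (assembly GRCm38.p6), each from 250 bases before to 50 bases after a gene's start, were matched for 5 of the 6 genes. The letters GTGTGA were searched for on both strands, where the opposite strand reads TCACAC. The *Fezf2* stretch is the part of its window without an annotated exon, at chr14:12345960-12346115 on the minus strand. It begins 250 bases before the RefSeq start, is 156 bases long, and does not reach that start. It lies inside the longer gene that GENCODE annotates, downstream of that gene's 5′ end. The *Bcl11b* stretch lies at chr12:108003478-108003503 on the minus strand, within an annotated exon. Capitals mark the core.
*Fezf2*: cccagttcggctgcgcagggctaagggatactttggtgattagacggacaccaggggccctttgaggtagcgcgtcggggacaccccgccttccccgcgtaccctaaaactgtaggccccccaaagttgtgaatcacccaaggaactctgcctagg
*Bcl11b*: ctttgaagaaGTGTGAgagatatttt

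The core was found at position -79 relative to the RefSeq start of *Bcl11b* and was in none of the windows of *Fezf2*, *Pcp4*, *Crim1*, or *Etv1*. Of all 32851 RefSeq promoters of the same length, 14.5% held it. These letters describe the windows and show no binding.

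In GRCm38 (GENCODE M21), *Fezf2* (ENSMUSG00000021743) lies at chr14:12342094-12348189 (minus strand). *Bcl11b* (ENSMUSG00000048251) lies at chr12:107910403-108003602 (minus strand), and *Etv1* (ENSMUSG00000004151) at chr12:38779380-38870484 (plus strand). *Ldb2* (ENSMUSG00000039706) lies at chr5:44472132-44799680 (minus strand). *Pcp4* (ENSMUSG00000090223) lies at chr16:96467606-96525793 (plus strand), and 23.7% of its exon bases are shared with *Igsf5* on the same strand, so that reads there cannot be assigned with certainty. *Crim1* (ENSMUSG00000024074) lies at chr17:78200248-78376592 (plus strand) and shares 2.05% of its exon bases with *Fez2* on the opposite strand. No exon base of the other 4 genes is shared with another annotated gene.

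All 6 genes were well above the filter in WT embryos. Per kb of exon, *Pcp4*, a regulator of calmodulin, had the highest mean level, 1317 ± 282 normalized reads per kb (SD, n = 5), followed by *Bcl11b* at 926 ± 202. *Ldb2* at 463 ± 28.9, *Fezf2* at 459 ± 157, and *Crim1* at 365 ± 42.6 came next, and *Etv1* was lowest at 81.4 ± 7.44. The ranges over the 5 WT embryos overlapped between *Pcp4* and *Bcl11b*, between *Ldb2* and *Fezf2*, and between *Fezf2* and *Crim1*. *Etv1* stood below *Crim1* without overlap, and 37.2% of the tested genes with an exon length were below its WT level, against 94.2% for *Pcp4*.

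*Tbr1* itself, the mutated gene, had 2097 to 4871 normalized reads in WT embryos, 4738 to 8543 in *Tbr1*+/K228E embryos, and 7148 to 16015 in *Tbr1*K228E/K228E embryos. The mutation changes a codon and does not remove the transcript, so these levels are a description and not a check of the labels. Normalized read counts summed to 30.5 to 31.8 M (mega) per embryo after the authors' scaling, which does not give the sequencing depth. Summed counts of the listed Hox genes, which mark hindbrain and spinal cord, ranged from 4.87 to 3961, and the 3 highest values were in WT replicate 1, WT replicate 4, and *Tbr1*+/K228E replicate 1. The cortical glutamatergic score, the mean log2(normalized read count + 1) of 5 cortical lineage genes that include *Emx1*, *Neurod2*, *Neurod6*, and *Lhx2*, ranged from 10.95 in WT replicate 4 to 12.29 in WT replicate 3. This score averaged 11.72 ± 0.50 in WT, 11.89 ± 0.20 in *Tbr1*+/K228E, and 11.76 ± 0.34 in *Tbr1*K228E/K228E embryos (SD, n = 5). The cortical lineage genes that define the tissue were therefore present in every embryo, in unequal amounts.

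*Fezf2* had the largest differences of the 6 genes between *Tbr1*K228E/K228E embryos and either other genotype, and neither passed correction over all genes. Its normalized read counts were 1207, 1481, 2001, 713, and 1597 in WT replicates 1 to 5, 1289, 2125, 1580, 1682, and 1450 in *Tbr1*+/K228E replicates, and 1968, 1436, 2987, 2122, and 2270 in *Tbr1*K228E/K228E replicates. WT replicate 4 was the lowest of all 15 embryos and *Tbr1*K228E/K228E replicate 3 the highest, 4.19-fold above it, and 3 of 5 *Tbr1*K228E/K228E embryos exceeded every WT embryo. The means were 1400 ± 479, 1625 ± 316, and 2157 ± 561 (SD, n = 5).

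The log2 difference of *Fezf2* was 0.66 (SE 0.24, 95% CI 0.16 to 1.17) between *Tbr1*K228E/K228E and WT embryos, with an unadjusted limma p of 0.0137 and a limma p of 1.0 after Benjamini-Hochberg adjustment over all tested genes. Without WT replicate 4 the log2 difference was 0.44. The two-sided exact permutation test of *Fezf2* alone gave p = 0.0635, where the smallest p for 5 against 5 embryos is 0.00794. Between *Tbr1*+/K228E and WT embryos the log2 difference was 0.27 (95% CI -0.23 to 0.78), and without WT replicate 4 it was 0.052. Between the mutant genotypes it was 0.39 (95% CI -0.12 to 0.90). Per K228E allele the log2 slope was 0.33 (95% CI 0.09 to 0.58). In a bulk sample, a change in the number of cells of a type and a change in RNA per cell cannot be told apart.

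*Bcl11b* had 7401, 8706, 9593, 6054, and 5816 normalized reads in WT, 6819, 10117, 8471, 8187, and 7644 in *Tbr1*+/K228E, and 8087, 6286, 9782, 7852, and 7880 in *Tbr1*K228E/K228E replicates 1 to 5. The 3 genotypes covered nearly the same range, and the highest value belonged to a *Tbr1*+/K228E embryo. The log2 difference between *Tbr1*K228E/K228E and WT embryos was 0.10 (95% CI -0.21 to 0.41), so that a rise of the size of the *Fezf2* estimate lay outside the interval. This interval still allows a modest change in either direction.

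*Etv1*, an ETS transcription factor that marks many layer 5 neurons, had 1104, 1121, 1213, 956, and 1018 normalized reads in WT, 978, 1521, 1123, 1125, and 1069 in *Tbr1*+/K228E, and 1314, 908, 1767, 1369, and 1375 in *Tbr1*K228E/K228E replicates 1 to 5. Of the 5 *Tbr1*K228E/K228E embryos, 4 were above all WT embryos and 1, replicate 2, was below all of them. That embryo had the lowest cortical glutamatergic score of its genotype, 11.29. The log2 difference was 0.29 (SE 0.15, 95% CI -0.02 to 0.60), with an adjusted p of 1.0 (limma, Benjamini-Hochberg) and an exact permutation p of 0.111. The log2 difference was 0.18 without *Tbr1*K228E/K228E replicate 3.

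*Ldb2*, which encodes a cofactor that binds LIM domain proteins, varied least. Its 15 values lay between 1422 and 1794, with means of 1543 ± 96.5 in WT, 1623 ± 85.1 in *Tbr1*+/K228E, and 1649 ± 93.9 in *Tbr1*K228E/K228E embryos (SD, n = 5). The groups overlapped, and the log2 difference between *Tbr1*K228E/K228E and WT embryos was 0.10 (95% CI -0.02 to 0.21). A change of *Ldb2* by as much as that estimated for *Fezf2* was thus outside the interval.

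*Pcp4* averaged 1352 ± 289 in WT, 1294 ± 305 in *Tbr1*+/K228E, and 1291 ± 186 in *Tbr1*K228E/K228E embryos (SD, n = 5). Its lowest value, 779, was that of *Tbr1*+/K228E replicate 2 and its highest, 1804, that of WT replicate 4, which is the embryo with the lowest *Fezf2*. The log2 difference between *Tbr1*K228E/K228E and WT embryos was -0.05 (95% CI -0.43 to 0.33).

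*Crim1*, a transmembrane protein that binds bone morphogenetic proteins, averaged 2186 ± 255 in WT, 2117 ± 248 in *Tbr1*+/K228E, and 2406 ± 141 in *Tbr1*K228E/K228E embryos (SD, n = 5). The *Tbr1*K228E/K228E embryos spanned 2195 to 2517 and the *Tbr1*+/K228E embryos 1804 to 2499, and 2 *Tbr1*K228E/K228E embryos were above all *Tbr1*+/K228E embryos. The log2 difference between these genotypes was 0.19 (95% CI 0.01 to 0.37) with an adjusted p of 0.996 (limma, Benjamini-Hochberg) and an exact permutation p of 0.0556. Against WT embryos it was 0.14 (95% CI -0.04 to 0.33).

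**Figure D1:**
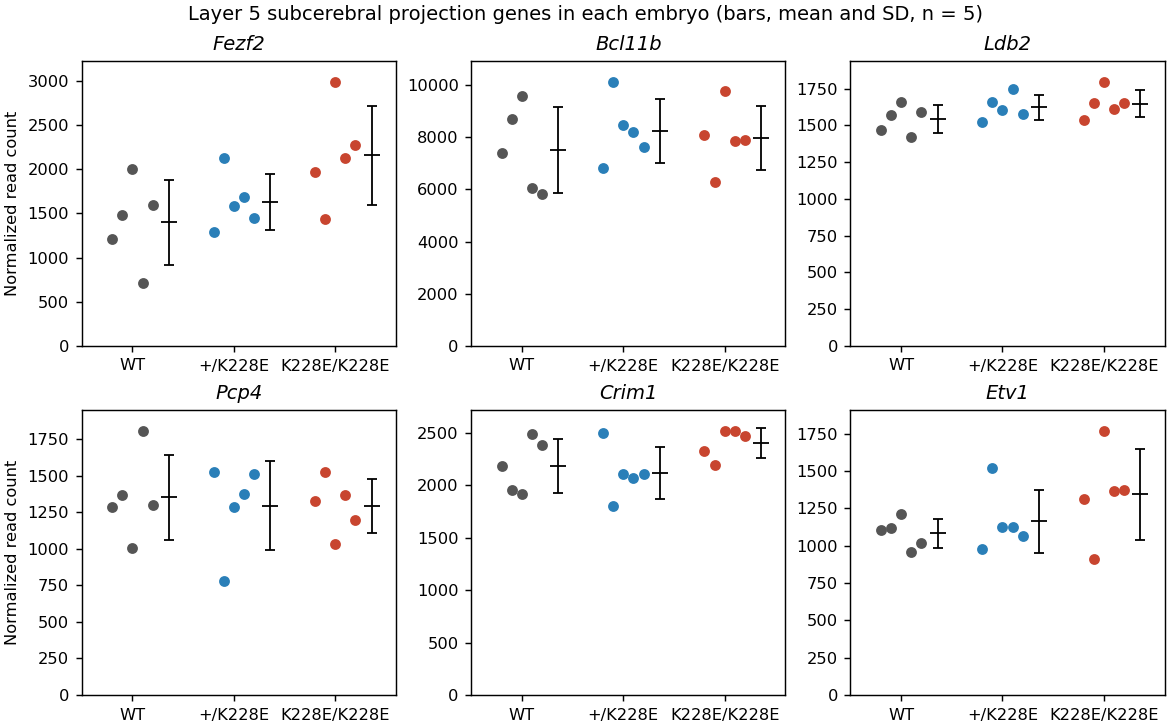
Normalized read count (vertical axis, from 0) of each of the 6 genes in every embryo, by genotype. Points are embryos in replicate order from left to right, and bars are the mean and SD of 5 embryos. The *Fezf2* means are 1400, 1625, and 2157, and the genotypes overlap for every gene.

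No member passed the threshold of an adjusted p under 0.05 in limma in any comparison. Of all tested genes, 0.0% passed between *Tbr1*+/K228E and WT embryos, 0.127% between *Tbr1*K228E/K228E and WT embryos, 0.0788% between the mutant genotypes, and 0.0727% in the trend over K228E alleles. At an unadjusted p under 0.05 the counts of members were 0, 1 (*Fezf2*), 1 (*Crim1*), and 1 (*Fezf2*) of 6 in the same order, beside 1.79%, 3.23%, 3.3%, and 3.29% of all tested genes. None of the 18 exact permutation tests of single members fell under 0.05. For no member were the embryos of any pair of genotypes fully apart, whereas 0.26% of all tested genes were so between *Tbr1*+/K228E and WT, 0.594% between *Tbr1*K228E/K228E and WT, and 0.878% between the mutant genotypes. Between *Tbr1*K228E/K228E and WT embryos 5 of 6 members had a difference above 0, with a median of 0.12 on the log2 scale, whereas 48.7% of all tested genes were above 0 and their median was -0.0023. The comparisons of both mutant genotypes with WT share the WT embryos and are not independent.

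The cortical glutamatergic score varied among embryos, and the members followed it in different directions. Each gene was compared with the cortical glutamatergic score over the 15 embryos after subtraction of genotype means. The permutation tests used 100000 resamples, with Benjamini-Hochberg correction over the 6 genes. They shuffled all 15 embryos without regard to genotype and made no allowance for the subtracted means, so their p can be too small. *Fezf2* followed the score most closely, with r = 0.973 (p = 1e-05, the smallest these resamples can give, adjusted 6e-05) and Spearman's rho = 0.914 (permutation p = 2e-05, adjusted 0.00012). Without WT replicates 3 and 4, which lay farthest out, r was 0.942. A higher r was found for 0.0545% of all tested genes, and the quartiles of r over all of them were -0.383 and 0.38.

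*Bcl11b* had r = 0.846 (permutation p = 3e-05, adjusted 9e-05) and rho = 0.832 (p = 0.00025, adjusted 0.0005), *Etv1* had r = 0.783 (permutation p = 0.00097, adjusted 0.00145) and rho = 0.846 (p = 0.00012, adjusted 0.00036). *Ldb2* had r = 0.727 (permutation p = 0.00179, adjusted 0.00215) and rho = 0.757 (p = 0.00181, adjusted 0.00217). Without WT replicates 3 and 4 these r were 0.836, 0.926, and 0.572. *Pcp4* ran the other way, with r = -0.817 (permutation p = 0.00035, adjusted 0.0007) and rho = -0.793 (p = 0.00074, adjusted 0.00111), and r = -0.74 without those embryos. *Crim1* had r = -0.515 (permutation p = 0.0473, adjusted 0.0473) and rho = -0.543 (p = 0.0386, adjusted 0.0386), which rested on those embryos, since r was -0.207 without them. As p from this way of shuffling can be too small, no association is claimed for *Crim1*. *Pcp4* is also expressed in thalamus and striatum and *Crim1* in vessels.

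**Figure D2:**
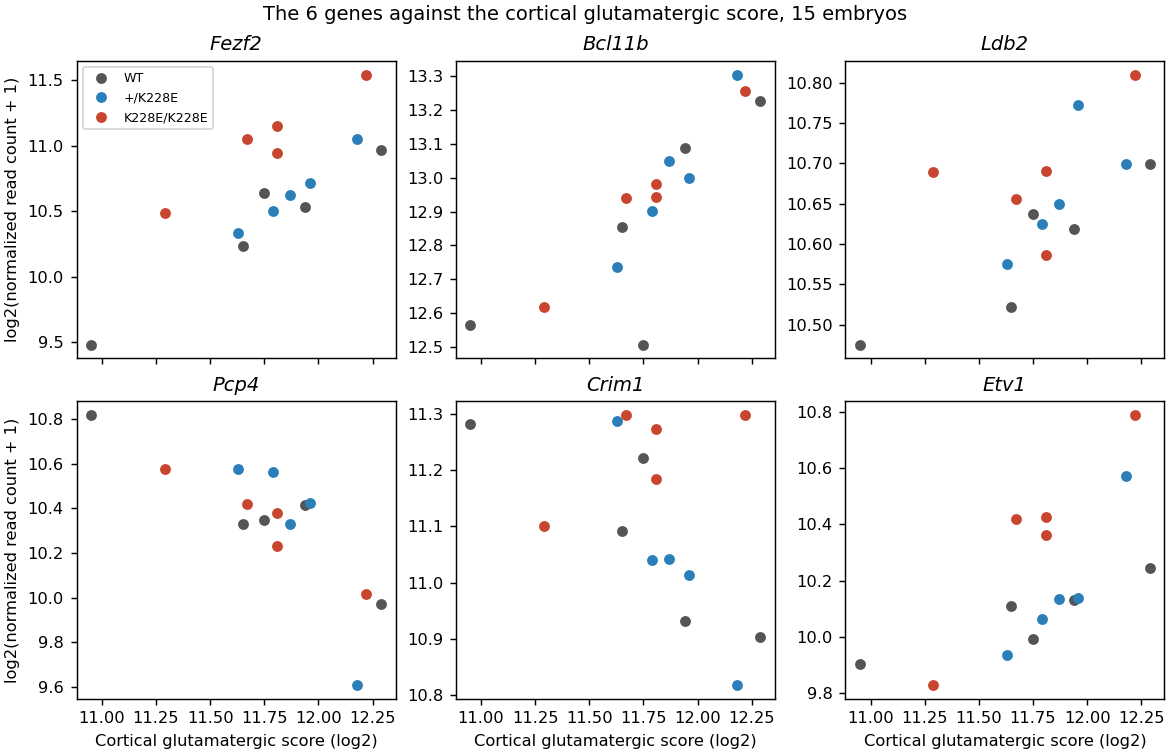
Log2(normalized read count + 1) of each of the 6 genes (vertical axes, each with its own range) against the cortical glutamatergic score (horizontal axis, log2) in 15 embryos, colored by genotype. *Fezf2* rises with the score at r = 0.973 after subtraction of genotype means, with the *Tbr1*K228E/K228E embryos above the others at a given score, whereas *Pcp4* falls at r = -0.817.

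With the cortical glutamatergic score as a covariate, *Fezf2* was higher in *Tbr1*K228E/K228E embryos than in either other genotype. Its log2 difference from WT embryos was 0.62 (SE 0.06, 95% CI 0.48 to 0.75), which is 1.53-fold, with an adjusted p of 0.000178 (limma, Benjamini-Hochberg). From *Tbr1*+/K228E embryos it differed by 0.53 (95% CI 0.40 to 0.67, adjusted p = 0.0019 by limma), whereas *Tbr1*+/K228E and WT embryos differed by 0.08 (95% CI -0.05 to 0.22, adjusted p = 1.0 by limma). This fit was 1 of several alternatives to the fit without a covariate. It left the estimate against WT embryos nearly unchanged and reduced its standard error from 0.24 to 0.06.

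In this fit 1 of 6 members, *Fezf2*, passed against WT embryos, beside 0.273% of all tested genes, and 1 of 6 passed between the mutant genotypes, beside 0.176%. In the trend over K228E alleles *Fezf2* had a log2 slope of 0.31 per allele (adjusted p = 0.00739 by limma), beside 0.158% of genes that passed. No member passed between *Tbr1*+/K228E and WT embryos, where 0.00606% of genes did. With the replicate number added as a block, the slope had an adjusted p of 0.0524 (limma) and did not pass.

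The same pattern can be read embryo by embryo when the score is subtracted from log2 *Fezf2*. The differences were -1.41, -1.41, -1.33, -1.47, and -1.11 in WT and -1.30, -1.12, -1.25, -1.24, and -1.29 in *Tbr1*+/K228E replicates 1 to 5. They were -0.86, -0.80, -0.68, -0.62, and -0.66 in *Tbr1*K228E/K228E replicates, so that every *Tbr1*K228E/K228E embryo lay above all 10 others. The two-sided exact permutation test gave p = 0.00794 against each other genotype, the smallest possible. Of all tested genes, 0.188% and 0.4% had such groups without overlap against WT and *Tbr1*+/K228E embryos. Subtraction takes every gene to change 1 for 1 with the score and adds the score's spread to genes that do not. Without it these shares were 0.594% and 0.878%. The subtraction uses the same score as the covariate fit and is not separate evidence. Relative to the score, WT and *Tbr1*+/K228E embryos overlapped (exact permutation p = 0.183), as they did for every member, and 0.0848% of all tested genes had no overlap there. Of the 18 such tests over the 6 genes and 3 comparisons, 3 fell under 0.05, these 2 of *Fezf2* and 1 of *Etv1*.

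**Figure D3:**
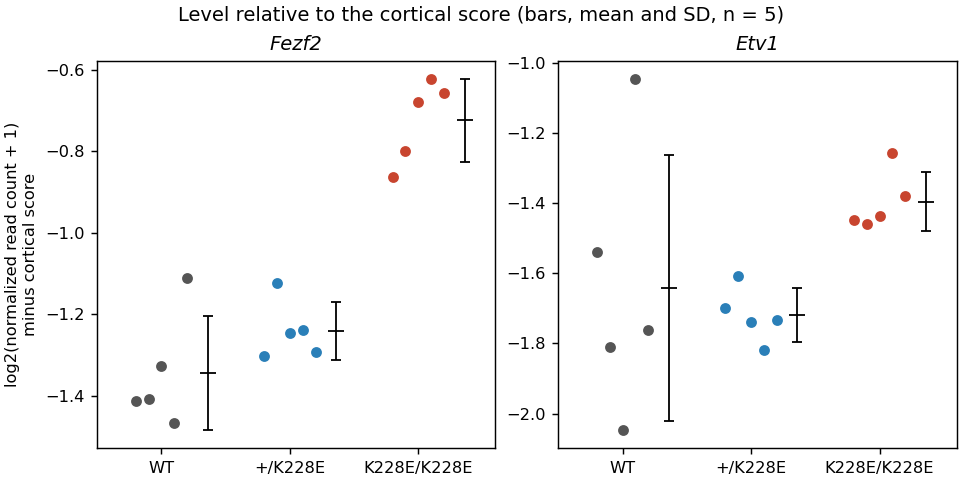
Log2(normalized read count + 1) minus the cortical glutamatergic score (vertical axes) for *Fezf2* and *Etv1* in every embryo, by genotype, with the mean and SD of 5 embryos. For *Fezf2* the *Tbr1*K228E/K228E embryos lie between -0.86 and -0.62 and all others at or under -1.11, whereas for *Etv1* they overlap with the WT embryos.

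The *Fezf2* difference from WT embryos lay between 0.56 and 0.63 when *Emx1*, *Neurod2*, *Neurod6*, or *Lhx2* was left out of the score in turn. At equal score *Neurod6* had a log2 difference of -0.19 (adjusted p = 0.0902 by limma) between *Tbr1*K228E/K228E and WT embryos. Whether the mutation itself changes the score was not tested beyond this value and the comparison of the scores, which gave an exact permutation p of 0.873 between *Tbr1*K228E/K228E and WT embryos.

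Other ways of treating the spread among embryos left *Fezf2* short of the threshold. With the interneuron score as a covariate its log2 difference between *Tbr1*K228E/K228E and WT embryos was 0.49 (adjusted p = 0.566 by limma). Without the 3 embryos of the highest Hox sums it was 0.32 (adjusted p = 1.0 by limma), and 2 of these were WT embryos with low *Fezf2*, replicates 1 and 4. Without the embryos of the lowest cortical scores, WT replicate 4 and *Tbr1*K228E/K228E replicate 2, it was 0.58 (adjusted p = 0.761 by limma).

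At equal cortical score *Etv1* had log2 differences of 0.26 (95% CI 0.06 to 0.47) from WT and 0.27 (95% CI 0.06 to 0.47) from *Tbr1*+/K228E embryos, with adjusted p of 0.736 and 0.948 (limma, Benjamini-Hochberg). Relative to the score, the *Tbr1*K228E/K228E embryos lay above all *Tbr1*+/K228E embryos (exact permutation p = 0.00794). In this comparison 0.4% of all tested genes had groups without overlap, and 0.878% did when the score was not subtracted. Relative to the score, the *Tbr1*K228E/K228E embryos overlapped with the WT embryos (exact permutation p = 0.198), of which replicate 4 was the highest of all 15. That embryo had only 956 normalized reads of *Etv1* and the lowest score, 10.95, so its place depends on subtracting the score 1 for 1. *Bcl11b* differed from WT embryos by 0.07 (95% CI -0.10 to 0.25) at equal score and *Pcp4* by -0.02 (95% CI -0.25 to 0.21). *Ldb2* and *Crim1* had estimates of 0.09 (95% CI 0.0015 to 0.18) and 0.15 (95% CI -0.01 to 0.31), and none of these 4 genes passed the threshold.

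**Figure D4:**
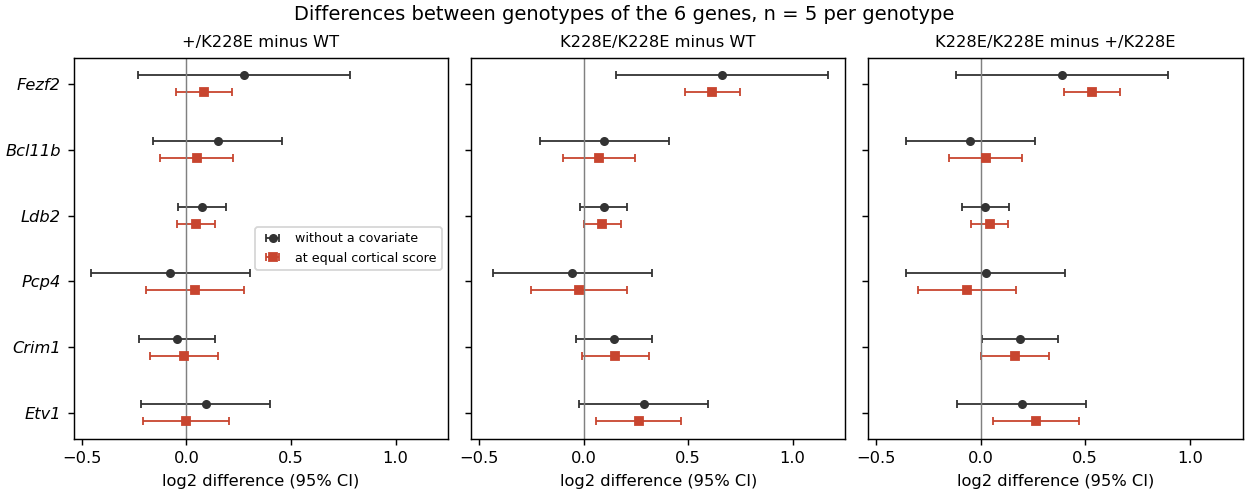
Log2 difference (horizontal axes) of each of the 6 genes between genotypes, with 95% confidence intervals, from the fit without a covariate (circles) and at equal cortical score (squares), 5 embryos per genotype. The interval of *Fezf2* against WT narrows from 0.16 to 1.17 to 0.48 to 0.75, and no other gene passed the threshold.

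Among 10 other genes known from corticospinal and subcerebral neurons, none passed the threshold in the fit without a covariate, and their median log2 difference between *Tbr1*K228E/K228E and WT embryos was 0.08. *Crym*, a thyroid hormone binding protein of corticospinal neurons, had the largest. Its counts were 408, 608, 748, 524, and 872 in WT, 621, 847, 704, 733, and 620 in *Tbr1*+/K228E, and 960, 942, 1432, 1175, and 1136 in *Tbr1*K228E/K228E replicates 1 to 5. The *Tbr1*K228E/K228E embryos lay above all others (exact permutation p = 0.00794 against WT embryos), and 0.594% of all tested genes had groups without overlap in this comparison. The log2 difference of *Crym* was 0.87 (95% CI 0.50 to 1.24) with an adjusted p of 0.0968 (limma, Benjamini-Hochberg), and at equal cortical score it was 0.85 with an adjusted p of 0.0171. *Diaph3* had the lowest difference, -0.20 (adjusted p = 1.0 by limma).

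Of 9 regulators of deep-layer and callosal fate, *Tbr1* alone passed without a covariate, with a log2 difference of 1.69 between *Tbr1*K228E/K228E and WT embryos (adjusted p = 0.00437 by limma). *Sox5*, which restrains *Fezf2* in early deep-layer neurons, had the lowest difference of this list, -0.16 (adjusted p = 1.0 by limma). *Tle4*, a corepressor of corticothalamic neurons, was named after its values were seen. Between the mutant genotypes its log2 difference was -0.27 (adjusted p = 0.593 by limma), and at equal cortical score it fell by 0.23 on the log2 scale (adjusted p = 0.0356 by limma). Without the score, every *Tbr1*K228E/K228E embryo lay below all *Tbr1*+/K228E embryos for *Tle4* (exact permutation p = 0.00794). In this comparison 0.878% of all tested genes had groups without overlap. With the score subtracted, the mutant genotypes overlapped for *Tle4* (exact permutation p = 0.349). Subtraction fixes a change of 1 for 1 with the score, whereas the covariate fit estimates it for each gene. This overlap therefore does not decide whether *Tle4* differed at equal score. Against WT embryos the *Tbr1*K228E/K228E difference was -0.15 (adjusted p = 1.0 by limma), and at equal cortical score it was -0.16 (adjusted p = 0.228 by limma).

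Of 3 genes known to be under the control of *Fezf2*, none passed in either fit. In bulk RNA their values come from all cells of the sample, so an effect of *Fezf2* on them was not tested. The vesicular glutamate transporter *Slc17a7* had a log2 difference of -0.08, the ephrin receptor *Ephb1* one of -0.15, and *Gad1*, which *Fezf2* represses, one of 0.04 between *Tbr1*K228E/K228E and WT embryos (adjusted p = 1.0 by limma for each). Of 7 paralogs of the members, none passed, and they ranged from -0.29 for *Pcp4l1* to 0.38 for *Fezf1*. The median of the paralogs was 0.02.

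**Figure D5:**
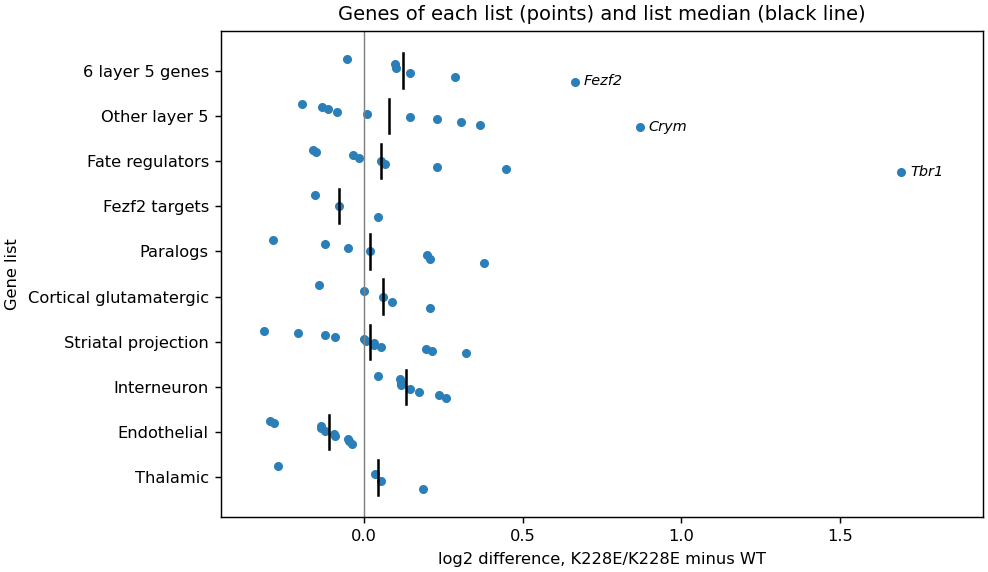
Log2 difference between *Tbr1*K228E/K228E and WT embryos (horizontal axis) of each tested gene (points) in the 6 layer 5 genes and in 9 other lists, with the list median as a black line. *Fezf2* at 0.66, *Crym* at 0.87, and *Tbr1* at 1.69 lie apart from the rest of their lists.

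Several members are also expressed outside layer 5, and marker lists of those cells are given beside them. Between *Tbr1*K228E/K228E and WT embryos, 8 of 12 striatal projection genes, which mark neurons that also hold *Bcl11b* and *Pcp4*, were above 0 with a median of 0.02. All 8 interneuron genes, which bear on *Etv1*, were above 0 with a median of 0.13 and a highest value of 0.26 for *Npy*. All 10 endothelial genes, which bear on *Crim1* and *Ldb2*, were below 0 with a median of -0.11, and 3 of 4 thalamic genes, which bear on *Pcp4*, were above 0 with a median of 0.04. None of these genes passed the threshold in either fit.

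The summed normalized reads of the striatal list were 6425 to 8528 in WT and 7393 to 8796 in *Tbr1*K228E/K228E embryos, those of the interneuron list 12980 to 19736 and 12658 to 20911, those of the endothelial list 5547 to 10145 and 5580 to 11039, and those of the thalamic list 9920 to 17476 and 11603 to 19696. The ranges overlapped for each list. The Hox list had summed reads of 8.21 to 3276 in WT and 7.77 to 576 in *Tbr1*K228E/K228E embryos, and the meningeal list 1560 to 44055 and 1656 to 33217. The part of these cells in the members' differences was not tested beyond the covariate fits and left-out embryos above.

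With sex as a covariate, and without the cortical score, no member passed in any comparison. The *Fezf2* difference at equal cortical score was not fitted with sex alone. Same-numbered embryos were of the same sex in every genotype, so a replicate block takes in sex. With that block and the cortical score, the *Tbr1*K228E/K228E difference was 0.61 from WT embryos (adjusted p = 0.002, limma). From *Tbr1*+/K228E embryos it was 0.54 (adjusted p = 0.00888, limma). In a fit that let the genotype differences vary with sex, the lowest adjusted p among members was 0.752 (limma, Benjamini-Hochberg), for *Bcl11b* between *Tbr1*K228E/K228E and WT embryos, where the difference was 0.51 higher in males on the log2 scale. With 2 males per genotype, a difference of this size was not resolved.

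The members did not move as 1 group among the embryos. After subtraction of genotype means, *Bcl11b* and *Etv1* had r = 0.844, *Fezf2* and *Etv1* r = 0.782, and *Fezf2* and *Bcl11b* r = 0.758 over 15 embryos, whereas *Fezf2* and *Pcp4* had r = -0.841 and *Pcp4* and *Crim1* r = 0.573. These are descriptions without a test, over embryos that also differ in the cortical, Hox, and meningeal markers above. The genes whose log2 values followed *Fezf2* most closely were *Neurod6* (r = 0.978), *Mpped1* (r = 0.977), and *Lix1* (r = 0.973). For *Bcl11b* they were *Gcg*, *Glcci1*, and *Shb* (r = 0.957, 0.957, and 0.954), and for *Etv1* they were *Trpc4*, *Dbpht2*, and *Foxp1* (r = 0.94, 0.939, and 0.932). *Pcp4* was followed most closely by *Kcnk9*, *Syndig1l*, and *Timp4* (r = 0.976, 0.976, and 0.974), *Ldb2* by *Pik3c2b*, *Pde9a*, and *Jade3* (r = 0.939, 0.933, and 0.931), and *Crim1* by *Smtnl2*, *Capn5*, and *Flot1* (r = 0.909, 0.901, and 0.895).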

How the data were processed

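The authors estimated transcript abundance from paired-end TruSeq libraries with Salmon (0.11.2, GRCm38), imported it to genes, and divided the counts by DESeq2 (1.22.2) size factors, per the submitters' processing notes and the study's methods. The deposited values are a normalized signal (the normalized read count) and need not be whole, so that no count model could be used and the depth behind a value is unknown. Of 19475 genes, 19469 were matched to GENCODE M21. The labels gave each embryo's genotype, number, and sex, and no embryo was left out of the main fit.

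Values were fitted as log2(normalized read count + 1), which makes changes of low genes look smaller, with limma 3.58.1 in R 4.3.3 (eBayes with trend) for 16507 genes with a mean of at least 5, with all 15 embryos in 1 fit and a Benjamini-Hochberg threshold of 0.05. This replaced the study's count test. Single members were compared by two-sided exact permutation tests, and p-values measure the spread between these embryos. Fits were tested on simulated data in which the spread of each gene was capped and the score was known without error. That test does not cover a score measured from the embryos' own genes. Alternatives were pseudocounts of 0.1 and 10, a filter at 50 or none, other scalings, sex, a replicate block, a robust variance prior, only the compared genotypes, an empirical null, marker scores as covariates, and leaving out embryos. The interneuron covariate, the fits without embryos of extreme marker values, and all alternatives to the *Fezf2* fit at equal cortical score were added after seeing the data. Log2 values of embryos of 1 genotype correlated with r of 0.971 to 0.988.

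The members and gene lists were chosen with earlier results of these data known, and so support nothing independently. Apart from the members and *Tbr1*, the genes that are named were those of each list past the threshold or with the highest or lowest difference between *Tbr1*K228E/K228E and WT embryos, and the 3 genes most correlated with each member. Other list genes named are background to the members' roles. The RefSeq promoter of *Ldb2* was not matched. Some genes of the lists are not reported here by name.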

Additional observations from a re-analysis of the deposited data

Results flagged for a closer look

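Of 36 groups of 5 embryos checked for a value apart from the others by Dixon's criterion, 1 was singled out, and chance alone singles out about 1 in 20 groups. The normalized read count of *Etv1* in *Tbr1*+/K228E replicate 2 was 1521, whereas the other 4 embryos of this genotype lay between 978 and 1125. The same embryo had the highest *Fezf2* (2125) and *Bcl11b* (10117), the lowest *Pcp4* (779), and the highest cortical glutamatergic score (12.18) of its genotype. The part of this score in the *Etv1* value was not tested. Relative to the score this embryo, at -1.61, was again the highest of its genotype for *Etv1*.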

How the results depend on the processing

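Of the results on the 6 genes, the adjusted p stayed above 0.05 (limma) under every alternative except the cortical covariate for *Fezf2*, and no member called in one direction was called in the other. With the cortical covariate, members past the threshold were 1 of 6 against WT, 1 between mutant genotypes, and 1 in the allele trend (0 without it), and genes past it were 1 (*Tbr1*+/K228E against WT), 45 (*Tbr1*K228E/K228E against WT), 29 (between mutant genotypes), and 26 (trend), where the fit without a covariate gave 0, 21, 13, and 12. The empirical null gave 42 against WT and 26 in the trend. The Hox covariate gave 21 between mutant genotypes, the interneuron covariate 36, 25, and 26 in the last 3 tests, and the fit of only the compared genotypes 12 against WT. Without the embryos of the highest Hox sums, 6 genes passed against WT and 1 in the trend. Without those of the lowest meningeal scores (WT replicate 3, *Tbr1*K228E/K228E replicates 3 and 4), 7 passed against WT, 0 between mutant genotypes, and 0 in the trend. Without those of the lowest cortical scores, 6 passed in the trend. The cause of these changes was not tested.

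Small differences changed sign. *Pcp4* became 0.015 (*Tbr1*+/K228E against WT), 0.051 (*Tbr1*K228E/K228E against WT), and 0.026 (trend) with the Hox covariate, and 0.043 (*Tbr1*+/K228E against WT) and -0.065 (between mutant genotypes) with the cortical covariate. With the interneuron covariate it became 0.13, 0.083, -0.044, and 0.039 in *Tbr1*+/K228E against WT, *Tbr1*K228E/K228E against WT, between mutant genotypes, and in the trend, where *Bcl11b* became -0.042, -0.027, 0.014, and -0.013. That covariate also gave 0.0045 for *Crim1* and -0.097 for *Etv1* in *Tbr1*+/K228E against WT. The cortical covariate gave -0.0013 for *Etv1* there and 0.025 for *Bcl11b* between mutant genotypes. Without the highest Hox sums, *Pcp4* was 0.079 (*Tbr1*K228E/K228E against WT) and 0.044 (trend), and *Bcl11b* -0.0068 (trend). Without the lowest cortical scores, *Pcp4* was 0.033 (*Tbr1*+/K228E against WT) and -0.039 (between mutant genotypes), *Crim1* 0.0027 (*Tbr1*+/K228E against WT), and *Bcl11b* 0.033 (between mutant genotypes). *Ldb2* between mutant genotypes was -0.0091 with the meningeal covariate and -0.0089 without the lowest meningeal scores.

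Leaving out 1 embryo at a time gave 12 to 21 genes for *Tbr1*K228E/K228E against WT, 6 to 8 between mutant genotypes, and 4 to 12 in the trend. The log2 difference of *Fezf2* between *Tbr1*K228E/K228E and WT embryos ranged from 0.44 (without WT replicate 4) to 0.81 (without WT replicate 3), and at equal cortical score from 0.59 to 0.67, with adjusted p from 1.24e-05 to 0.00177 (limma). Between *Tbr1*+/K228E and WT embryos *Fezf2* ranged from 0.052 to 0.42 without the same embryos, and it was 0.011 without the highest Hox sums, 0.012 with the interneuron covariate, and 0.12 with the Hox covariate. In *Tbr1*K228E/K228E against WT, *Etv1* ranged from 0.18 to 0.42 (without *Tbr1*K228E/K228E replicates 3 and 2) and *Bcl11b* from 0.014 to 0.19 (without WT replicates 5 and 3). *Pcp4* ranged from -0.18 to 0.096 (*Tbr1*+/K228E against WT), -0.15 to 0.058 (*Tbr1*K228E/K228E against WT), -0.15 to 0.10 (between mutant genotypes), and -0.073 to 0.029 (trend). *Crim1* and *Etv1* ranged from -0.11 to 0.0095 and from -0.0094 to 0.15 in *Tbr1*+/K228E against WT, and *Bcl11b* and *Ldb2* from -0.13 to 0.033 and from -0.0087 to 0.049 between mutant genotypes.

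Replicate numbers were not treated as a pairing in the main fit. Same-numbered embryos are different animals, but they were of the same sex in every genotype, so the number also carries sex. The correlations of their deviations ranged from -0.232 to 0.506. Between *Tbr1*K228E/K228E and WT embryos all were positive, with a mean of 0.243. The means were 0.0687 between *Tbr1*+/K228E and WT embryos and 0.0111 between the mutant genotypes. With the replicate number as a block, 16, 2, and 7 genes passed against WT (*Tbr1*K228E/K228E), between mutant genotypes, and in the trend, and no member did. With the block and the cortical covariate, the *Fezf2* log2 difference against WT was 0.61 (adjusted p = 0.002, limma), and the slope per allele was 0.31 (adjusted p = 0.0524, limma).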
